A study of Mus musculus with 87 samples.

Results

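The canonical Polycomb repressive complex 1 (PRC1) genes examined here were Rnf2, Ring1, Bmi1, Cbx2, Cbx6, Cbx7, Cbx8, Phc1 and Phc2. They were read by gene symbol in the 13 deposited tables of RNA-seq comparisons, and all 9 of these genes were among the 26171 symbols of every table. The cells were mouse embryonic stem cells (ESC) of the line 129-B13, kept in serum with the cytokine LIF, and neuronal precursors (NP) made from them through embryoid bodies, with retinoic acid added on day 4 and harvest on day 8. Polyadenylated RNA had been sequenced from 18 ESC and 14 NP samples. The ChIP-seq samples were all ESC, and from them only a list of Suz12 regions and a list of H3K27me3 regions enter, both named for WT. The ChIP-seq samples of Ring1b, H2Aub, Jarid2, Mtf2 and Aebp2 were not used here.

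The ESC groups comprised 3 wild-type samples (WT), 2 samples in which exon 4 of Suz12 is constitutive (CSex4), 2 in which that exon was deleted (Deltaex4), 3 of a full Suz12 knock-out (KO), and the knock-out rescued with the long isoform (KO-L, 2) or the short isoform (KO-S, 2). A further 2 groups, KO-L3D and KO-S3D (2 samples each), were knock-out cells with such a rescue that carried what the labels call the 3D mutation, downstream of exon 4, from the Rosa26 locus. In NP there were 4 WT samples and 2 of each of the knock-out, its long and short rescue, Deltaex4 and CSex4. All rescue lines therefore share the knock-out background. The labels do not say whether samples of a group came from separate clones or cultures, so the spread that p-values measure may be technical. The authors' statistics are labelled paired, which is read here as a replicate block in their fits. On that reading their p-values measure the spread between samples that is left after the block.

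PRC1 is the Polycomb complex that ubiquitylates histone H2A, through a RING-type E3 ligase, Rnf2 (also called Ring1b) or its paralog Ring1. In canonical PRC1 the ligase is paired with Bmi1 (Pcgf4) or its paralog Pcgf2, a chromobox protein (Cbx) reads H3K27me3 laid down by PRC2, and a Polyhomeotic protein (Phc) joins complexes to each other through its SAM domain. In ESC, Cbx7 is the best known chromobox subunit, and the set of Cbx proteins in PRC1 is known to change as ESC differentiate. Suz12 is a core subunit of PRC2.

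Of the 9 genes, 8 had a promoter entry in RefSeq (GRCm38.p6, the build named mm10 in the submitters' processing notes). The 250 bases before the annotated start are printed for Bmi1 and Cbx8, which lie under a Suz12 region, and for Cbx7 and Phc1, which lie under none; the Cbx7 window lies before a start inside its span. They run 5′ to 3′ on the strand of the gene, in lower case, with every CG dinucleotide (the motif searched, which reads the same on both strands) in capitals.
Bmi1, chr2:18676768-18677017, plus strand: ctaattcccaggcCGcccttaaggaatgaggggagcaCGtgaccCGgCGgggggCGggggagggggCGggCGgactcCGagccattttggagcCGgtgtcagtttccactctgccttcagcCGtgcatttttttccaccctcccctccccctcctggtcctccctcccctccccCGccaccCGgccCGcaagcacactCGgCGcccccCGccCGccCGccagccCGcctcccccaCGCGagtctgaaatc
Cbx8, chr11:119040914-119041163, minus strand: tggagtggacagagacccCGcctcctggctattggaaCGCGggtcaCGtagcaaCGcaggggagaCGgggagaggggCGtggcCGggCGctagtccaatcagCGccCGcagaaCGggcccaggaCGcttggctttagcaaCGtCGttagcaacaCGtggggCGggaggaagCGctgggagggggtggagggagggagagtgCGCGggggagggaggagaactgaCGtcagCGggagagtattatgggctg
Cbx7, chr15:79932647-79932896, minus strand: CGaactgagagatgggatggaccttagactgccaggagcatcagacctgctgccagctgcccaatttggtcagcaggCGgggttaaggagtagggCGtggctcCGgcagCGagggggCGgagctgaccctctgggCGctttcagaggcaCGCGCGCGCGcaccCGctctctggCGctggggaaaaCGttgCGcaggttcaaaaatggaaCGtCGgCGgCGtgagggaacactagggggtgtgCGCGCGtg
Phc1, chr6:122340228-122340477, minus strand: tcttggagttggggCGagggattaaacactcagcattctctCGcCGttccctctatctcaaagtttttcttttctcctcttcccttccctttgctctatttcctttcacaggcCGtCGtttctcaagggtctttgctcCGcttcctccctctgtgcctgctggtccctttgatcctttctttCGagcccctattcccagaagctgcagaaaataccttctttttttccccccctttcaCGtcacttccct

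The Bmi1 window held 21 CG dinucleotides and the Cbx8 window 22, and 16.3% and 14.8% of all 32851 promoter windows of this length held at least as many. The Cbx7 window held 23 (13.3% of promoters with at least as many) and the Phc1 window 8 (43.0%), against a median of 6. Windows under no region ranged widely: those of Rnf2, Cbx6 and Ring1 held 20, 20 and 30, and 3 windows of Phc2 (4 bases of 1 of them under an H3K27me3 region) held 13, 1 and 34. All 250 bases of the Bmi1 and of the Cbx8 window lay under a Suz12 region.

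H3K27me3 regions lay within 2500 bp of the spans of Cbx2, Cbx8, Bmi1 and Phc2, 4 of the 9 genes. Among 21887 annotated protein-coding genes the share was 22.3%. Suz12 regions lay within 2500 bp of 3 of the 9, Cbx2, Cbx8 and Bmi1, against 11.8% of protein-coding genes. The region lists are the authors' and carry no direction of change, so they say here only where listed regions lie. Cbx8 (chr11:119036303-119040913) lay whole inside a Suz12 region of 26305 bp (chr11:119033855-119060159), and Cbx2 (chr11:119023019-119031275), its neighbour, had a Suz12 region of 2352 bp over the lower end of its span. Bmi1 (chr2:18677018-18686629) had 6843 bp of its span under a Suz12 region of 10343 bp and 7501 bp under an H3K27me3 region. Phc2 (chr4:128654655-128752881) had 2 narrow H3K27me3 regions, of 1491 and 3037 bp, inside its span, and its nearest Suz12 region was 52307 bp away. For Ring1, Cbx6 and Cbx7 the nearest region of either list lay between 15667 and 40698 bp from the span, and for Phc1 and Rnf2 at least 220628 bp away.

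The deposited tables hold statistics per comparison, but their mean scaled reads jointly fix the whole reads of each library for most genes. The values per library below are these reads divided by a size factor of the library ("scaled reads"), with ESC and NP scaled separately, so their levels are not compared across the cell types. Libraries held 23567522 to 47197732 reads in recovered genes. Libraries of 1 group carry no number here and are always listed in the same order, within a cell type and group. As the check of the labels, Suz12 had 4379, 5710.0 and 8516 scaled reads in ESC WT and 1646, 2527 and 1229 in ESC KO, and 4989, 5724, 3459.9 and 3064 in NP WT against 1219 and 1264 in NP KO. It lay below every WT library in both KO groups, but the libraries labelled KO-L3D (1575 and 2490.5) were within the range of KO, while KO-S3D (4719.9 and 9585) overlapped WT.

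Several libraries stood apart from their group. The 2 libraries of KO-L, KO-L3D and KO-S3D differed widely in Bmi1 or Cbx8, as given with those genes. The 3 trophoblast markers recovered in ESC (Cdx2, Hand1 and Elf5, of 4 listed) summed to 5408 scaled reads in the first KO-S3D library and 76 in the second, and to 6231 and 1498 in KO-L3D, against 30 to 93 in WT. Most of these KO-S3D and KO-L3D sums was Hand1, with 65.8 to 5132 scaled reads in KO-S3D and 1274 to 5335 in KO-L3D. The 4 endoderm markers summed to 70, 74 and 1716 scaled reads in ESC WT, so the last WT library stood apart. They summed to 559 to 640 in ESC KO and to 2911 and 3945 in ESC KO-S. Among NP WT libraries the first had a sum of 13472 for the 9 neural precursor markers and the other 3 had 43248 to 47944. All 7 ESC markers and all 9 neural markers were detected in the cells named for them. The part of these differences in the results was not tested, and in bulk RNA fewer cells of a type and less RNA per cell cannot be told apart. In the 6 ESC tables with 2 libraries against 3 WT libraries, the deposited fold changes are matched by the recovered reads of the last 2 of the WT libraries alone, without the first.

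Bmi1 and Cbx8 were higher in the ESC and NP knock-outs than in WT, and lower in both NP rescues than in the knock-out. Cbx2 rose and Cbx6 fell in the ESC knock-out, Phc1 rose in NP with constitutive exon 4, and Rnf2 and Phc2 were called in none of the authors' deposited tables. In the authors' deposited table of ESC KO vs WT, 3 members were called higher (Bmi1, Cbx2 and Cbx8), where 11.0% of tested genes were, and 1 lower (Cbx6), where 7.27% were; a call is an adjusted p under 0.05. KO-L3D vs WT had 2 members called higher (Bmi1 and Cbx8; 8.22% of tested genes). No member was called in ESC CSex4 (2.41% of genes called), Deltaex4 (0.0%), KO-L (2.23%), KO-S (7.91%) or KO-S3D (3.23%) against WT. In the authors' deposited DESeq2 tables of these, 2, 0, 3, 2 and 0 members had an unadjusted p under 0.05. Among all 26171 symbols, 1607, 135, 1420, 2855 and 2059 did. Many symbols were not tested: 13811, 20263, 13880, 14472 and 14307 had an adjusted p in these tables. Limma on the recovered reads also called 0 members in the first 4 of these comparisons and 2 (Rnf2 and Ring1) in KO-S3D. The limma counts here and below have no share of all genes beside them. Limma had no replicate block and took all groups of a cell type in 1 model. Its error is therefore pooled over groups outside the comparison, and in ESC all 3 WT libraries enter. Which of these differences from the deposited fits changed a call was not tested.

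In NP CSex4 vs WT, 1 member was called higher (Phc1; 4.08% of tested genes), and in NP KO vs WT 2 were (Bmi1 and Cbx8; 11.6%). NP Deltaex4 vs WT had no member called, with 0.0809% of genes called, 0 members at an unadjusted p under 0.05 in the authors' deposited DESeq2 table and 0 called by limma on the recovered reads. The table of NP WT vs KO, which rests on the other 2 WT libraries and the same KO libraries, had 1 member called higher in WT (Ring1; 15.6%) and 3 lower (Bmi1, Cbx7 and Cbx8; 17.3%). Against KO, NP KO-L had 2 members lower (Bmi1 and Cbx8; 13.8%). NP KO-S had 1 higher (Ring1; 16.4%) and 4 lower (Bmi1, Cbx6, Cbx7 and Cbx8; 18.0%). The median log2 fold change of the 9 members was 0.40 in ESC KO vs WT, 0.59 in ESC KO-L3D vs WT and -0.05 in NP KO vs WT in the authors' deposited tables, beside 0.01, -0.03 and -0.01 for all tested genes. All 7 ESC tables share the WT libraries and all 4 NP tables with KO share its libraries, so their values are not independent of each other.

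**Figure D1:**
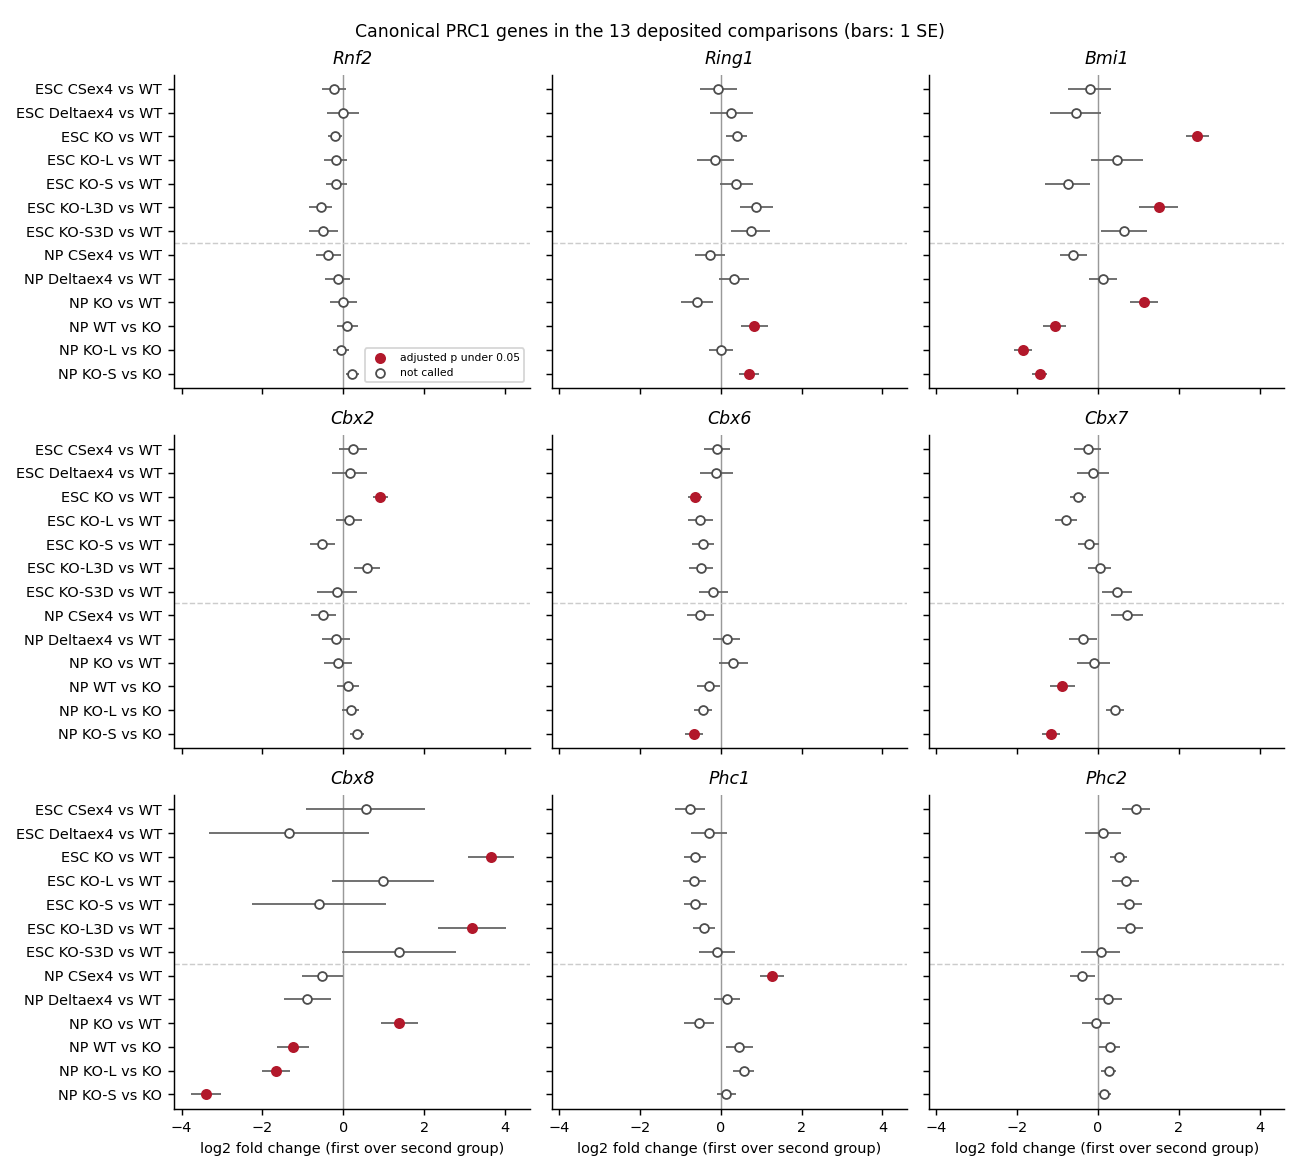
Log2 fold change (x axis, bars 1 SE) of each member in the 13 deposited comparisons (y axis; the dashed line parts ESC from NP); filled points have an adjusted p under 0.05. Bmi1 and Cbx8 hold 6 called values each, all above 0 where KO or KO-L3D is over WT and all below 0 where a group is over KO, and Rnf2 stays within 0.56 of 0.

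Rnf2, the main RING E3 ligase of PRC1 in ESC, had 3934, 4360.4 and 4648 scaled reads in ESC WT and 3655, 3715 and 3978 in ESC KO, ranges that overlap. Its largest deposited difference was in KO-L3D, with 2756 and 3522 scaled reads, below every WT library, and a log2 fold change of -0.56 ± 0.28 (SE; adjusted p 0.161) in the authors' deposited table. KO-S3D, with 2884 and 3599, had -0.49 ± 0.35 (adjusted p 0.568) in the authors' deposited table. Without the replicate block, limma on the recovered reads called both, at -0.47 (adjusted p 0.0149) and -0.42 (adjusted p 0.0365). In NP, Rnf2 had 5268, 4516, 5388 and 4866 in WT, 3862 and 3816 in CSex4 and 4600.3 and 5404 in KO. The CSex4 libraries were the lowest of all NP libraries, but the difference from WT, -0.37 ± 0.30 (adjusted p 0.681 in the authors' deposited table), was not called.

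Ring1, the paralog of Rnf2, had 226, 209.7 and 221 scaled reads in ESC WT and 291, 253 and 339 in ESC KO. The KO libraries all lay above WT, but the log2 fold change of 0.40 ± 0.26 was not called (adjusted p 0.311 in the authors' deposited table). The highest ESC values were 409 and 402 in KO-L3D and 372 and 354 in KO-S3D, with 0.88 ± 0.41 (adjusted p 0.120) and 0.74 ± 0.49 (adjusted p 0.526) in the authors' deposited tables. Limma on the recovered reads, with no replicate block, called both (adjusted p 0.00305 and 0.0148). In NP, Ring1 had 508 and 419 scaled reads in KO and 467 and 456 in KO-L, below all 4 WT libraries (548, 844, 684 and 918) and both KO-S libraries (806 and 663). The authors' deposited tables gave 0.84 ± 0.34 for WT vs KO (adjusted p 0.0464) and 0.70 ± 0.25 for KO-S vs KO (adjusted p 0.0183). Against the first WT pair, KO was at -0.59 ± 0.40 and was not called (adjusted p 0.325 in the authors' deposited table). The WT vs KO call also ended with adjustment over every gene that had a p (adjusted p 0.0574) and with fold changes centred on the median (0.0639). In limma it ended without the second KO library or the last WT library (adjusted p up to 0.116), and the KO-S call without the second KO library or either KO-S library (up to 0.214).

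Bmi1, a PCGF subunit of canonical PRC1, is a repressor of the Cdkn2a locus in many cell types. It had 118, 117 and 193 scaled reads in ESC WT and 774, 665 and 914 in ESC KO. Every KO library lay above every WT library, and the means differed 5.49-fold. The log2 fold change in the authors' deposited table was 2.46 ± 0.29 (SE; adjusted p 6.13e-15). The 3 mesoderm markers summed to 483 to 564 scaled reads in ESC KO and 98 to 138 in WT, and all 3 were called higher. The 3 recovered trophoblast markers summed to 668, 743 and 189 (30 to 93 in WT), with 2 of the 4 listed called higher, and the 7 ESC markers to 118056 to 145607 (84670 to 105327 in WT), with 3 called higher. Most of the trophoblast sum in KO was Hand1, with 144.5 to 653.1 scaled reads. The part of all these markers in the ESC KO values was not tested. KO-L3D, with 585 and 323 scaled reads, also lay above WT, at 1.50 ± 0.49 (adjusted p 0.0174 in the authors' deposited table). In limma that call ended without the first KO-L3D library or without the first or second WT library (adjusted p up to 0.231, log2 fold change 1.21 to 2.07).

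In the rescued ESC, Bmi1 levels spread widely, and none of the 3 differences tested between rescues was called for it from the deposited values. KO-S had 74.1 and 108 scaled reads, below all 3 WT libraries, and KO-S3D had 234 and 238, above all 3. The KO-L libraries had 497 and 87.0, so that 1 was between WT and KO and the other below WT. Against WT, the authors' deposited tables gave log2 fold changes of -0.74 ± 0.56 for KO-S (adjusted p 0.515), 0.64 ± 0.57 for KO-S3D (0.681) and 0.47 ± 0.65 for KO-L (0.964). CSex4 (159 and 108) and Deltaex4 (64.4 and 161) overlapped or spanned the WT range.

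In NP, Bmi1 had 1371, 1275, 1464 and 1276 scaled reads in the 4 WT libraries, 2662 and 3328 in KO, 822 and 818 in KO-L and 960.4 and 1189 in KO-S. KO lay above and both rescues below every WT library, and the KO mean was 2.22 times the WT mean. In the authors' deposited tables the log2 fold changes were 1.14 ± 0.34 for KO vs WT (adjusted p 0.00617), -1.06 ± 0.28 for WT vs KO (adjusted p 0.00107), -1.86 ± 0.22 for KO-L vs KO (adjusted p 8.02e-16) and -1.44 ± 0.18 for KO-S vs KO (adjusted p 3.00e-14). All 4 held in limma without any one library, with a highest adjusted p of 0.00713. In the NP KO libraries the 9 neural markers summed to 3517 and 3897 scaled reads and 8 of the 9 were called lower, while the 4 trophoblast markers summed to 25514 and 28223 (4406 to 10218 in WT) and the 4 endoderm markers to 8728 and 16230 (1850 to 6847 in WT). Most of the trophoblast sum was Krt8, with 23684 to 26799 scaled reads in KO and 4152 to 9766 in WT. All 4 trophoblast markers had a log2 fold change above 0 in KO vs WT, and 3 were called higher. The part of all these markers in the NP values of Bmi1 and Cbx8 was not tested. The CSex4 libraries, at 876 and 889, were also below all WT libraries, at -0.61 ± 0.33 (adjusted p 0.377 in the authors' deposited table).

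Cbx8, a chromobox subunit best known from differentiating cells, was at very low levels in ESC: 6.5, 20.2 and 5.4 scaled reads in WT, from 7, 21 and 5 whole reads. ESC KO had 136, 136 and 109 whole reads, or 111 to 133 scaled reads, 11.3 times the WT mean, and no KO library overlapped WT. The log2 fold change was 3.64 ± 0.57 (adjusted p 7.51e-09 in the authors' deposited table). KO-L3D had 171 and 55.8 scaled reads and 3.18 ± 0.85 (adjusted p 0.00246) in the authors' deposited table. In the remaining rescues 1 library was high and 1 at the WT level or both were low: 62.2 and 6.3 in KO-L, 105 and 6.9 in KO-S3D, 11.2 and 4.2 in KO-S. Their log2 fold changes were 0.98 ± 1.27, 1.37 ± 1.41 and -0.60 ± 1.66 in the authors' deposited tables, and none was called; the one of KO-S had no adjusted p. In limma the KO call ended without the first WT library or without the first or second KO library (adjusted p up to 0.0553), and the KO-L3D call without the first WT library or the first KO-L3D library (up to 0.165).

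In NP, Cbx8 had 156, 202, 159 and 232 scaled reads in WT, 494 and 453 in KO, 158 and 141 in KO-L and 39.6 and 48.4 in KO-S. KO lay above WT, KO-L overlapped WT, and KO-S lay 4.25-fold below the WT mean without overlap. The authors' deposited tables gave 1.39 ± 0.45 for KO vs WT (adjusted p 0.0139), -1.24 ± 0.40 for WT vs KO (adjusted p 0.00759), -1.66 ± 0.35 for KO-L vs KO (adjusted p 1.67e-05) and -3.40 ± 0.38 for KO-S vs KO (adjusted p 9.64e-18). All 4 calls held in limma without any one library, with a highest adjusted p of 0.0278. CSex4 (124 and 129) and Deltaex4 (81.7 and 111) were below all WT libraries, and neither was called (-0.52 ± 0.51 and -0.89 ± 0.58 in the authors' deposited tables).

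Cbx2, a chromobox subunit that can compact nucleosomes, had 837, 950.4 and 789.7 scaled reads in ESC WT and 1622, 1638 and 1639 in ESC KO. The KO mean was 1.90 times the WT mean with no overlap, and the log2 fold change was 0.91 ± 0.19 (adjusted p 2.66e-05 in the authors' deposited table). Limma, without the replicate block and with its error pooled over all ESC groups, gave 0.93 and did not call it (adjusted p 0.0523). KO-S, with 582 and 623, lay below all WT libraries (-0.52 ± 0.31, adjusted p 0.363 in the authors' deposited table). The 3D rescues were split, with 1769.7 and 999 in KO-L3D and 1388 and 439 in KO-S3D. In NP, Cbx2 had 2151 to 2502 in WT and 2125 and 2187 in KO, with -0.14 ± 0.34 (adjusted p 0.839) in the authors' deposited table.

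Cbx7, the chromobox subunit typical of ESC, had 5444, 4355 and 6504 scaled reads in ESC WT, 3711, 3848 and 4069 in KO and 2618 and 3669.8 in KO-L. Both groups lay below every WT library, but the authors' deposited tables called neither, at -0.49 ± 0.20 (adjusted p 0.0729) and -0.79 ± 0.27 (adjusted p 0.114). In NP the groups were far apart: 1416 and 1274 in KO, 2058 and 1556 in KO-L, 2464 and 2300.5 in CSex4, and 704 and 491 in KO-S. The first WT library had 2222 and the other 3 had 902, 642 and 766. The ESC markers summed to 39418 and 40120 in CSex4, to 14256 in the first WT library and to 6368 to 9651 in the other 3. Cbx7 was lower in KO-S than in KO, at -1.16 ± 0.23 (adjusted p 2.97e-06 in the authors' deposited table). The authors' deposited table of the second WT pair against KO gave -0.88 ± 0.30 (adjusted p 0.0145). The first WT pair gave -0.11 ± 0.42 for KO vs WT (adjusted p 0.9 in the authors' deposited table). Limma called KO-S vs KO (adjusted p 0.0392; up to 0.194 without any one of its 4 libraries, each of which ended the call) and not WT vs KO (0.0679). Cbx7 and Apobec3 overlap by 2415 bases, and the strand setting of the counting is not given in the sources used here.

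Cbx6, a chromobox subunit that is less well studied, had 1889.8, 2129 and 1925 scaled reads in ESC WT and 1182, 1352 and 1364 in KO. KO lay below every WT library, with a log2 fold change of -0.63 ± 0.18 (adjusted p 0.00376 in the authors' deposited table); limma called it at 0.0110 and at 0.0554 without the first KO library. KO-L, KO-S and KO-L3D also lay below every WT library (1236 to 1672), and none was called in the authors' deposited tables. Limma with no replicate block called KO-L3D (-0.42, adjusted p 0.0448). In NP, Cbx6 had 1614 and 2184 scaled reads in KO and 1213 and 1109.9 in KO-S. KO-S lay below KO, at -0.66 ± 0.21 (adjusted p 0.00778) in the authors' deposited table. Npcd is annotated over the whole Cbx6 span (10436 bases), so the reads of these genes could not always be told apart, and the Cbx6 values are uncertain.

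Phc1, the Polyhomeotic subunit most studied in ESC, had 14593, 13969 and 26400.5 scaled reads in ESC WT, where the last library stood above the others. KO had 11184, 10106 and 13079, below all WT libraries, with -0.64 ± 0.27 (adjusted p 0.0766 in the authors' deposited table). The 6 other ESC groups had log2 fold changes from -0.76 to -0.09 in the authors' deposited tables, and none was called. In NP, Phc1 was the only member called in CSex4: 7558 and 7479.7 scaled reads against 2880.3, 3267, 2813 and 2946 in the 4 WT libraries. The CSex4 mean was 2.53 times the WT mean, and the authors' deposited table gave 1.26 ± 0.30 (adjusted p 0.00124). Limma called it too (1.29, adjusted p 0.0329), but not without either CSex4 library or the second WT library. Over the fits with a library left out, the log2 fold change was 1.20 to 1.38. In the same 2 CSex4 libraries the 7 ESC markers summed to 39418 and 40120 scaled reads, against 6368 to 14256 in WT, and 5 of the 7 were called higher; the 9 neural markers summed to 14192 and 14130. The KO-L libraries, whose ESC markers summed to 30879 and 21136, had 3430.5 and 3037 scaled reads of Phc1, and KO had 3368 and 1396. The part of the ESC markers in the Phc1 value was not tested.

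Phc2, the second Polyhomeotic subunit, had 957, 909 and 667 scaled reads in ESC WT, and 1589 and 1402 in CSex4. KO had 1409.5, 1188 and 1073, the short rescue 1297 and 1369, and the long rescue 1114 and 1429. All of these lay above every WT library. The log2 fold changes were 0.93 ± 0.35, 0.52 ± 0.21, 0.78 ± 0.30 and 0.69 ± 0.34 in the authors' deposited tables, and none was called (adjusted p 0.156, 0.0675, 0.0913 and 0.462). In ESC CSex4 the 7 ESC markers summed to 43055 and 61694 scaled reads (84670 to 105327 in WT), and 3 were called lower. There, 2 of the 4 trophoblast and 1 of the 3 mesoderm markers were called higher. The part of these markers in the Phc1 and Phc2 values of ESC CSex4 was not tested. KO-L3D (1879 and 1013) had 0.80 ± 0.32 (adjusted p 0.0639 in the authors' deposited table). With fold changes centred on the median of genes at a level of at least 100, which was -0.15 in KO-L3D and -0.10 in KO, Phc2 was called in both (adjusted p 0.0243 and 0.0238). In NP, Phc2 had 3755 in the first WT library and 5125 to 5403 in the other 3, 3475 and 3574 in CSex4 and 4198 and 4741 in KO, and no NP comparison was called.

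**Figure D2:**
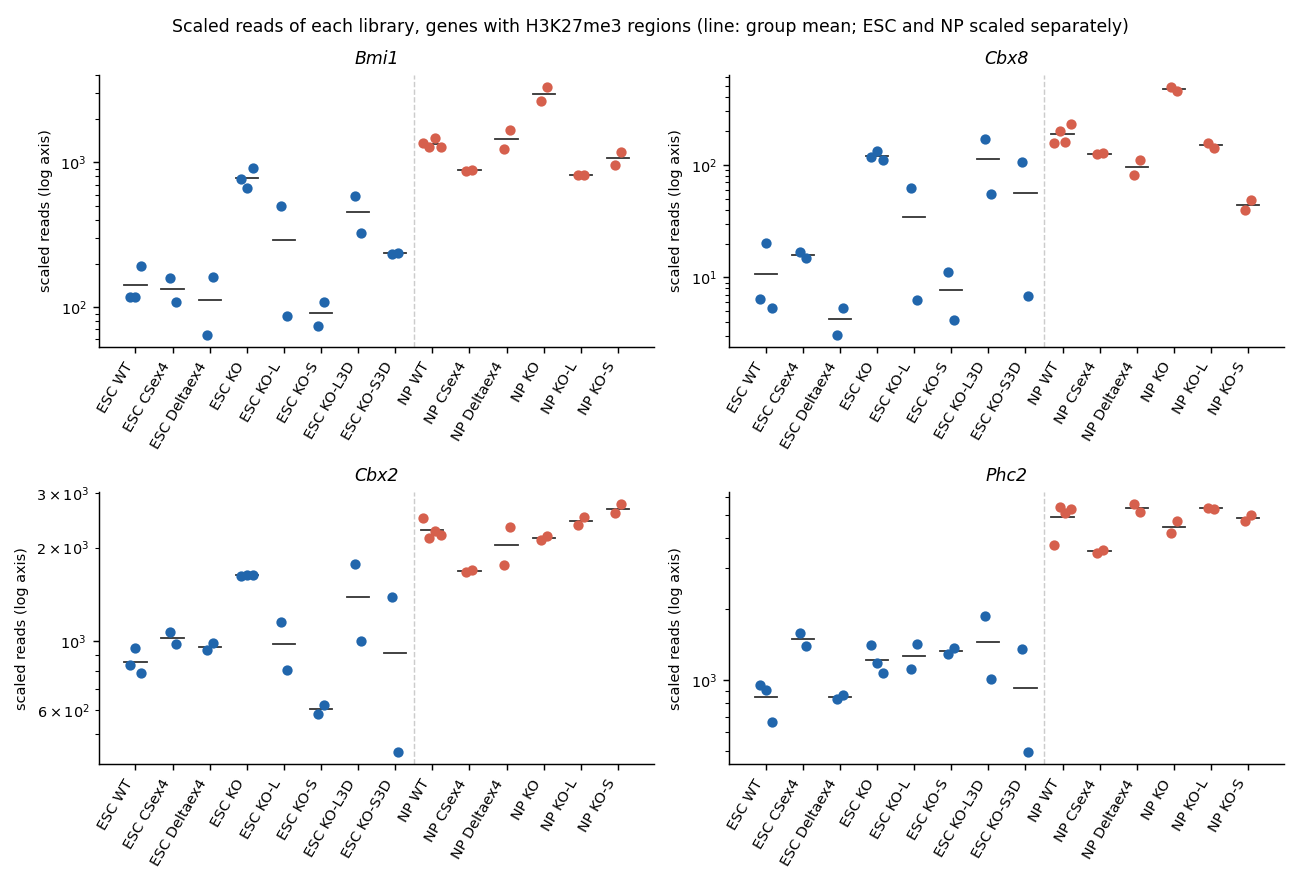
Scaled reads (log axis) of each library (points) and group means (lines) for the 4 members with H3K27me3 regions, ESC in blue and NP in red, each cell type scaled apart. ESC KO lies above ESC WT for all 4 genes, and in NP only Bmi1 and Cbx8 have KO above every WT library.

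**Figure D3:**
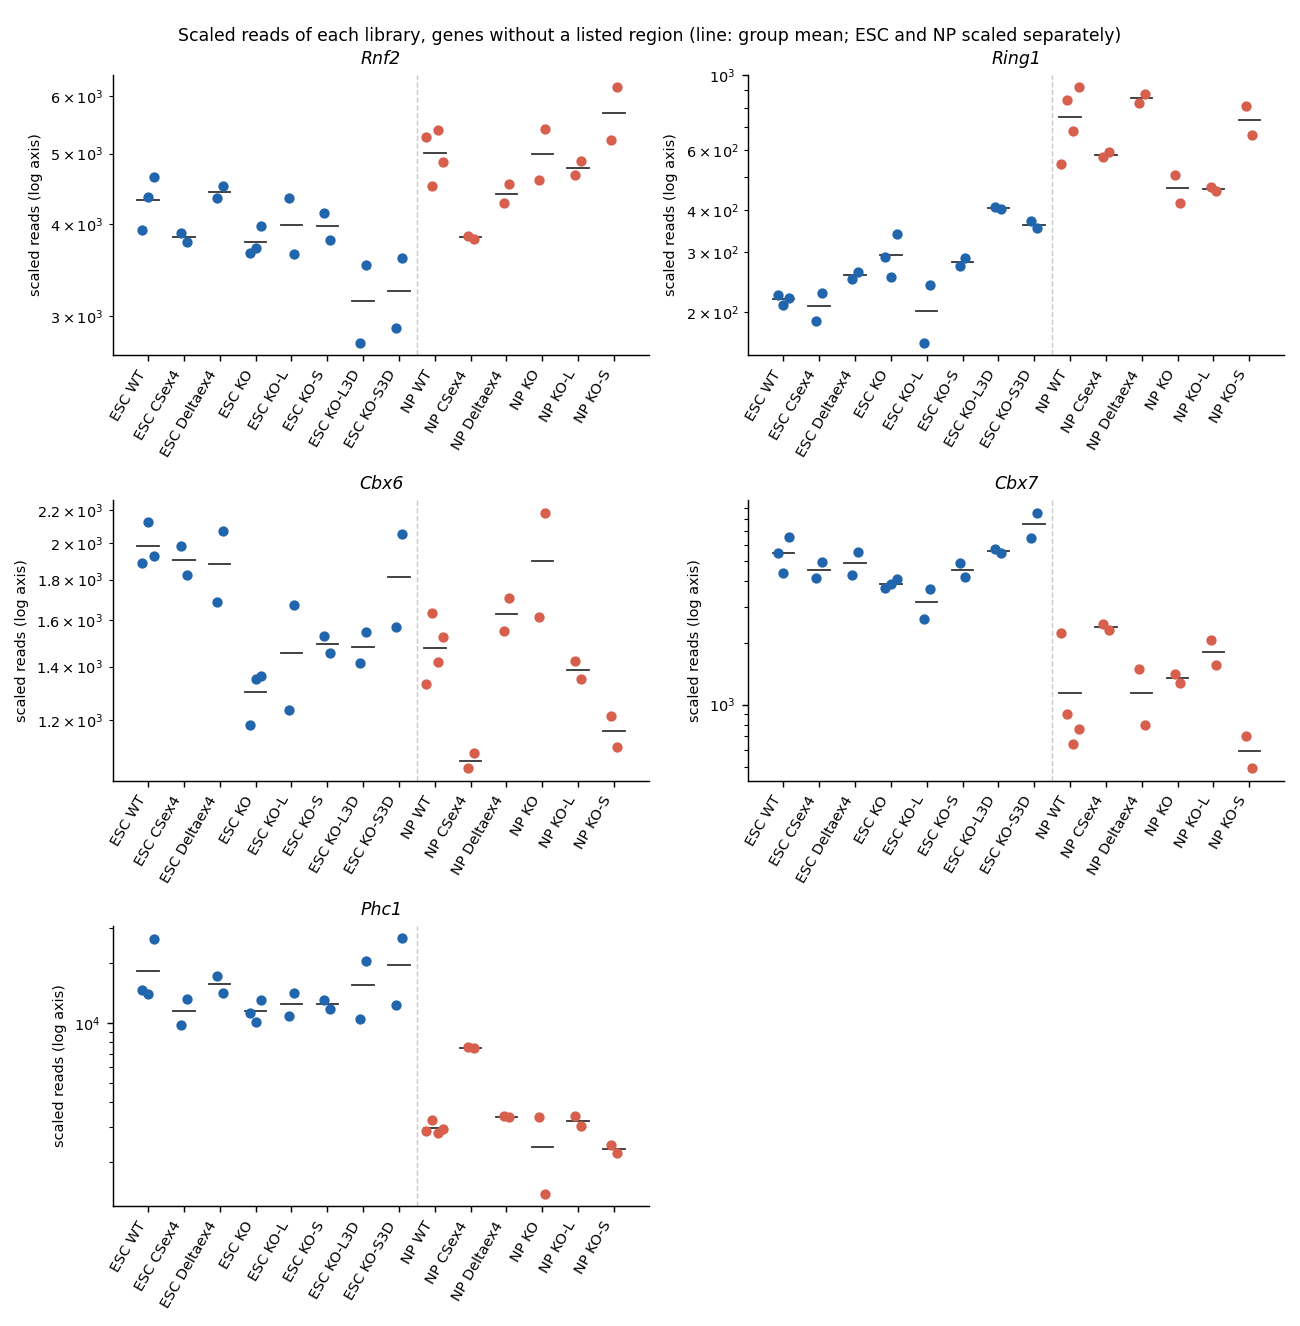
Scaled reads (log axis) of each library (points) and group means (lines) for the 5 members with no region within 10000 bp, ESC in blue and NP in red, each cell type scaled apart. In NP the CSex4 libraries (7558 and 7479.7) are the highest for Phc1, and the KO-S libraries (704 and 491) are among the lowest for Cbx7.

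Differences between comparisons were tested as the difference of 2 deposited log2 fold changes, with the standard error as the root of the summed squares; where comparisons share libraries this error is an upper estimate. The short-isoform rescue differed from the knock-out in ESC for 2 members, where 3.76% of genes differed: Bmi1 by -3.20 ± 0.63 (95% interval -4.43 to -1.97, adjusted p 5.15e-05) and Cbx2 by -1.43 ± 0.36 (-2.14 to -0.72, adjusted p 0.00456). Cbx8 was below the level minimum of 10 in the KO-S table and was not tested; it had 11.2 and 4.2 scaled reads in KO-S against 111 to 133 in KO, and limma called that difference. For the long-isoform rescue no member differed from KO (0.589% of genes did), with Bmi1 at -1.99 ± 0.71 (interval -3.39 to -0.59, adjusted p 0.245) and Cbx8 at -2.66 ± 1.39. KO-L and KO-S did not differ for any member tested in ESC (3.94% of genes did); the interval for Bmi1, -0.46 to 2.89, is wide.

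In NP, KO-L and KO-S differed for Cbx8 and Cbx7, where 10.3% of genes did. Cbx8 was higher in KO-L by 1.74 ± 0.51 (0.73 to 2.74, adjusted p 0.0106), and Cbx7 by 1.57 ± 0.32 (0.95 to 2.19, adjusted p 2.99e-05). The 7 ESC markers summed to 30879 and 21136 scaled reads in NP KO-L and to 7793 and 6755 in KO-S, and their part in the Cbx7 difference was not tested. For Bmi1 the difference was -0.42 ± 0.28 (-0.97 to 0.14, adjusted p 0.451). The KO effect was larger in ESC than in NP for Cbx8 by 2.26 ± 0.73 (adjusted p 0.0183), for Bmi1 by 1.32 ± 0.45 (adjusted p 0.0280) and for Cbx2 by 1.04 ± 0.39 (adjusted p 0.0482), where 14.3% of genes differed. No member tested was called in KO-L3D minus KO-L (4.88% of genes differed) or KO-S3D minus KO-S (0.732%). The same held for CSex4 minus Deltaex4 in ESC (0.0766%) and NP (1.78%). Intervals were wide, as in KO-L3D minus KO-L for Cbx8 (-0.79 to 5.19) and Bmi1 (-0.56 to 2.62). Suz12 had 1574.6 to 2490.5 scaled reads in KO-L3D and 3181.6 to 3605.9 in KO-L, and the part of its level was not tested. In the NP exon 4 contrast Phc1 was at 1.11 ± 0.43 (0.26 to 1.96, adjusted p 0.213). For these contrasts limma without the replicate block called 2 members in KO-L3D against KO-L (Ring1 and Cbx7), 1 in KO-S3D against KO-S (Cbx7) and 4 in NP CSex4 against Deltaex4 (Cbx6, Phc1, Phc2 and Bmi1).

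**Figure D4:**
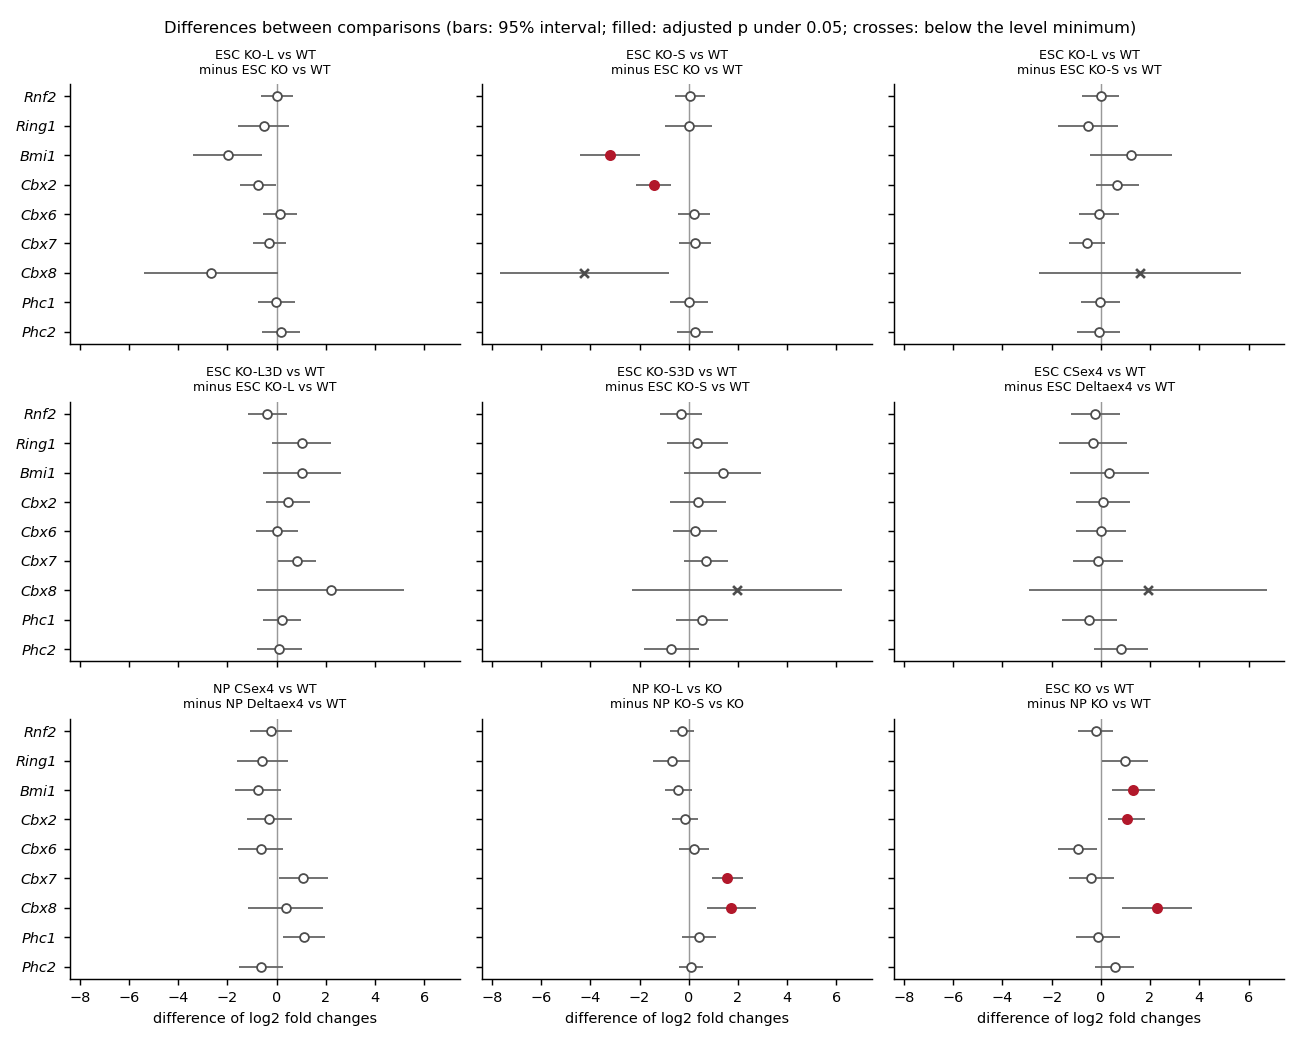
Difference of 2 log2 fold changes (x axis, bars 95% intervals) for the 9 members in the 9 pairs of comparisons; filled points have an adjusted p under 0.05 and crosses mark members below the level minimum. Bmi1 and Cbx2 are filled for KO-S minus KO in ESC, Cbx7 and Cbx8 for KO-L minus KO-S in NP, and Bmi1, Cbx2 and Cbx8 for ESC minus NP.

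Other canonical PRC1 genes were read in the same tables. Scml2, a sex-comb protein that binds PRC1, rose in ESC KO by 2.26 ± 0.33, and Scmh1, of the same family, fell in NP KO by 0.98 in the authors' deposited tables. Phc3 and Pcgf2 were called in no comparison. In ESC WT, Pcgf2 had a mean of 1934.8 scaled reads and its paralog Bmi1 a mean of 142.8. Scaled reads are not divided by transcript length, so these means do not rank the genes.

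Of 16 variant PRC1 genes, 3 were higher (Bcorl1, Bcor and Pcgf5) and 2 lower (Pcgf6 and Mga) in ESC KO, and none was called in NP KO, in the authors' deposited tables. Over all tested genes, 11.0% were higher and 7.27% lower in ESC KO, and 11.6% higher and 9.85% lower in NP KO. The median log2 fold change of the 16 was -0.13 in ESC KO and -0.04 in NP KO. Bcorl1, a partner of Pcgf1 complexes, had 83.2, 143 and 34.5 scaled reads in ESC WT and 638, 731 and 561 in KO. Of 5 genes for H2AK119 deubiquitination, Asxl2 was lower in ESC KO and Asxl3 in NP KO, by -0.58 and -1.38 in the authors' deposited tables. The 3 HP1 chromobox genes, Cbx1, Cbx3 and Cbx5, which bind H3K9 methylation and not H3K27me3, were all lower in ESC KO (-0.83, -0.69 and -0.53), and Cbx1 and Cbx3 were lower in NP KO (-0.92 and -1.53), in the authors' deposited tables.

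Across the 13 comparisons, the genes whose deposited log2 fold changes were most like those of Bmi1 were Bahd1 (Pearson r 0.964), H19 and Tnfrsf21, among 10238 genes at a level of at least 100 in every table. For Cbx8 they were Bahd1 (0.940), Bmi1 (0.928) and H19 (0.923). The comparisons share libraries, so these r describe likeness over 13 linked points. Cbx8 and Bmi1 were the most alike pair of members, and the next, Cbx2 with Bmi1, had 0.428. The nearest genes to Rnf2 (Abraxas2, 0.923), Ring1 (Cep131, 0.970), Cbx7 (Otud3, 0.910), Phc1 (Tada2a, 0.934), Phc2 (Sdc3, 0.922), Cbx6 (AI837181, 0.868) and Cbx2 (Chd3, 0.791) were no members.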

How the data were processed

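Polyadenylated RNA of 32 samples was analysed from 13 tables deposited by the authors. Per the submitters' processing notes the tools were Bowtie, TopHat, DESeq2 and DiffBind, with builds mm10 and dm3. Per the file headers, the deposited columns are a mean of normalised counts (a signal value scaled by library), a log2 fold change with its standard error, a test statistic (a score), and a p-value with its adjusted p-value. The 2 region lists deposited by the authors give a value per region that the file headers call neither p-value nor FDR.

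Adjusted p-values are the authors' own (DESeq2) and were given for 13811 to 20263 of the 26171 genes of a table. Whole reads of each library were recovered from the deposited means: genes were accepted with a unique whole-number solution, or where the reads gave every deposited fold change of that cell type within 0.01 log2, which took in Phc1 in ESC. This accepted 16808 of 16828 genes tried in ESC and 18004 of 18004 in NP. Reads were scaled by median-of-ratios size factors, within ESC and within NP. A count test had been planned had the files held counts per sample. They held means of normalised counts, and the planned test was not run on the recovered reads either. Limma 3.58.1 (R 4.3.3) was run instead, as an alternative chosen after seeing the data. It took log2(scaled reads + 1) of genes at a mean of at least 10, in 1 model per cell type over all groups. There was no replicate block, and the fits were repeated with each library left out. Differences between comparisons were tested with a normal approximation for genes at a level of at least 10 in both tables and adjusted by Benjamini-Hochberg over all of them. The fits were tested on simulated data.

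The members and gene lists were chosen with earlier results of these data known. The genes named were all members, Suz12, list genes called in ESC or NP KO vs WT, and the 3 genes most like each member. Phc3 and Pcgf2 were named after their values were seen. Libraries carry no replicate number. ChIP values per sample were not analysed here. A result for 1 further gene of the lists is not reported here.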

Additional observations from a re-analysis of the deposited data

Results flagged for a closer look

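Among the 4 NP WT libraries, the first stood apart from the other 3 for Cbx7, with 2222 scaled reads against 642 to 902, and for Phc2, with 3755 against 5125 to 5403. The gap to the nearest library was 0.835 of the group's range for Cbx7 and 0.831 for Phc2, above Dixon's critical value of 0.829 for 4 samples. All 9 members were tested in this group, and chance gives such a gap in about 1 of 20 groups.

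The KO effect differed between ESC and NP for 3 members, by the test of the difference itself: Cbx8 by 2.26, Bmi1 by 1.32 and Cbx2 by 1.04 on the log2 scale, larger in ESC each time. ESC and NP differ in culture and in their WT libraries, and their part in the difference was not tested.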

How the results depend on the processing

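With limma on the recovered reads and no replicate block, 107 of the 117 log2 fold changes of members kept their direction and side of the threshold. It called 5 members in ESC KO-L3D vs WT and 2 in KO-S3D vs WT, and 2, 1 and 4 members differed in KO-L3D against KO-L, KO-S3D against KO-S and NP CSex4 against Deltaex4. At an adjusted p under 0.01, 1 member was called in KO-L3D, 1 in NP KO vs WT and 2 in NP WT vs KO, 1 differed between NP KO-L and KO-S, and 0 between ESC and NP KO. Among genes at a level of at least 100 in both tables, at an adjusted p under 0.05, 1 member differed between ESC and NP KO. The counts of members in this paragraph have no share of all genes beside them and are not read as a result about the members. In the authors' deposited table of ESC KO-L3D vs WT, 2792 of 15275 tested genes were called. Uncalled values near 0 changed sign: Rnf2 in Deltaex4 (0.0206 centred on the median, 0.0419 in limma), Phc1 in KO-S3D (0.0046 and 0.0484) and Phc2 in KO-S3D (-0.0232 in limma). The cause was not tested. With each library left out in limma, where a lone sample is assumed to vary like the other groups, members called ranged from 1 to 4 in ESC KO, 0 to 1 in KO-L, 1 to 5 in KO-L3D, 1 to 3 in KO-S3D, 0 to 4 in NP CSex4, 0 to 1 in NP Deltaex4, 2 to 4 in NP KO, 2 to 5 in NP WT vs KO, 2 to 4 in NP KO-L and 3 to 5 in NP KO-S. Over the deposited calls that limma made with all libraries, 21 of 80 such fits lost the call; limma made no call for Cbx2 in ESC KO or Cbx7 in NP WT vs KO. Cbx8 in ESC rests on few reads.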
